A study of Mus musculus with 16 samples.

Results

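Imprinted genes are expressed mainly from the copy inherited from 1 parent, and the 40 listed imprinted genes were followed here through 16 lists of open chromatin. All 40 were found in the RefSeq gene table of GRCm38.p6 (mm10), 39 by symbol and Nespas through its synonym Gnasas1, beside 21887 protein-coding genes in all. Of the 40 genes, 38 are protein-coding, Kcnq1ot1 is a long noncoding RNA and Nespas is an antisense RNA. They occupy 16 loci: 33 genes share 9 domains and 7 stand alone (Mest, Plagl1, Impact, Nnat, Slc38a4, Nap1l5 and Inpp5f). Genes of 1 domain can share regions, so they are not independent of each other. Peaks were scored in 2 ways: as an end peak, which lies within 1 kb of either end of the gene, and as a region, which lies inside the gene or within 20 kb of it.

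Imprinting depends on DNA methylation placed on 1 parental copy in the germ line, at control regions that often coincide with a promoter. The unmethylated copy is usually open and the methylated copy closed, so both states are present in 1 nucleus, and peaks such as those used here do not tell the copies apart. Many imprinted genes act on growth, on the placenta or on the brain. Igf2, for example, encodes a fetal growth factor, Igf2r a receptor that clears it, Cdkn1c an inhibitor of the cell cycle, and Ube3a a ubiquitin ligase of neurons. In cultured embryonic stem cells (ESCs) imprints are known to be prone to loss.

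ATAC-seq, in which a transposase cuts and tags accessible DNA, was run on mouse ESCs and on embryoid bodies, with 2 libraries in each of 8 groups. All lines carry the Rx:GFP knock-in, a reporter at the eye field gene Rx. ESCs were kept in 2i+LIF and comprised the parental line, 2 clones without p53 (C9 and H9), and double knockouts of Wdr5 and p53 stably transfected with the backbone plasmid, with WDR5WT (wild-type WDR5, named hWDR5 in the series title) or with WDR5S91K-Y191F (a mutant WDR5, called S91K-Y191F here). Embryoid bodies made by the SFEBq method were parental, at day 4 by label, or Wdr5 and p53 double knockout with no plasmid and no day in the label, so genotype and day cannot be told apart there. WDR5 is a scaffold subunit of histone H3K4 methyltransferase complexes and p53 a stress-induced transcription factor. Every group other than the parental ones lacks p53. C9 and H9 are 1 clone each, and the labels do not give the clone behind the double knockout lines.

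The lists differ in length, and this touches every count below. They held 1535 and 2492 peaks in backbone ESCs, 5174 and 16257 in S91K-Y191F ESCs, 24367 and 5330 in parental ESCs, 26305 to 32709 in C9, H9 and WDR5WT ESCs and 75673 to 93646 in embryoid bodies. Parental, backbone and S91K-Y191F lists also stood apart by their widest peak, at 18810 to 29214 bp against 7727 to 15921 bp in the other ESC lists. Embryoid body lists are of another format, without summits, and have narrower peaks (median 343 to 364 bp against 579 to 668 bp). Of 8 ESC markers, 6 or 7 had an end peak in C9, H9 and WDR5WT lists, 7 and 3 in parental, 5 or fewer in S91K-Y191F and 1 in each backbone list. Of 8 neural and eye field markers, 8 had one in both parental embryoid body lists and 6 and 7 in the double knockout. Of 6 mesoderm and endoderm markers 4 or 5, and of 4 trophectoderm markers 2 to 4, had one in embryoid body lists. The 8 ESC markers had one there too, 8 and 8 in parental and 7 and 7 in double knockout lists. In both WDR5WT ESC lists 5 neural and eye field and 4 mesoderm and endoderm markers had one, and 0 to 4 of each in the other ESC lists. End peaks of these markers are thus no proof of cell type. The part of list length and list format in the differences below was not tested beyond lists of equal length. An end peak does not report the deletions: Wdr5 had one in 5 of 16 lists, all 4 embryoid body lists among them, and Trp53 in 9 of 16.

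Before the values, the start sequences of 7 genes are shown, because the peaks at these starts carry the patterns described below. They come from the RefSeq promoter table (GRCm38.p6), which held 34 of the 40 genes and lacked Peg10, Sgce, Rtl1, Cdkn1c, Impact and Nespas. Each reads 5′ to 3′ on the strand of the gene, and capitals mark CpG dinucleotides, the sites of DNA methylation. The Peg3 entry is the 96 bases between the annotated ends of Peg3 and Usp29, which are transcribed away from each other. The other 6 are the 250 bases before an annotated start.
Peg3 to Usp29 (chr7:6730463-6730558, minus strand): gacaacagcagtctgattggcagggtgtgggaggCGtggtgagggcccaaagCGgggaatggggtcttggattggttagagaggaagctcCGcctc
Tssc4 (chr7:143069118-143069367, plus strand): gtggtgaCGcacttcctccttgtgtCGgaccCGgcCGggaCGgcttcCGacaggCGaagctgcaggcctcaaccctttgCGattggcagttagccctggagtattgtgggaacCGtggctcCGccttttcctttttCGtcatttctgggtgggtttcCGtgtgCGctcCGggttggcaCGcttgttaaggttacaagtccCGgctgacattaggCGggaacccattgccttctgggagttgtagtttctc
Ndn (chr7:62348027-62348276, plus strand): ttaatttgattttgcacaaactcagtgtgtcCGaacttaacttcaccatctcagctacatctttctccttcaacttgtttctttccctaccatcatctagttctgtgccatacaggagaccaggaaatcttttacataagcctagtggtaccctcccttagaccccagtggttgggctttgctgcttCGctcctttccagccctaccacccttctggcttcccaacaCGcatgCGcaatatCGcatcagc
Mest, second start (chr6:30737800-30738049, plus strand): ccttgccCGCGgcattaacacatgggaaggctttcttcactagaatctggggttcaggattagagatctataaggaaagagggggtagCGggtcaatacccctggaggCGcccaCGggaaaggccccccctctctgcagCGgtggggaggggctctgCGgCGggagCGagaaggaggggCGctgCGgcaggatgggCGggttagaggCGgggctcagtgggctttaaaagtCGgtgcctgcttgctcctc
Gnas, most downstream start (chr2:174329756-174330005, plus strand): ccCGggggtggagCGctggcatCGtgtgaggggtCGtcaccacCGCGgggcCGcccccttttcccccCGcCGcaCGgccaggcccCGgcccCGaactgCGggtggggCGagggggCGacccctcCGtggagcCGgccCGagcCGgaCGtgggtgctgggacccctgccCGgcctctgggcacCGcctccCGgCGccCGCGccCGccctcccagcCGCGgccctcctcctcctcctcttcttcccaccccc
Phlda2 (chr7:143502525-143502774, minus strand): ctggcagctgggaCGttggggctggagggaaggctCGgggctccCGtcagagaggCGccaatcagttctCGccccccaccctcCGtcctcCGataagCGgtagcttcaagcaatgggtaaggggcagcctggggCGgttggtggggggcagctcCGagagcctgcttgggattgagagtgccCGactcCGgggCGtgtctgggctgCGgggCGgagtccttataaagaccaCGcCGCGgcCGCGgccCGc
Slc22a3 (chr17:12507705-12507954, minus strand): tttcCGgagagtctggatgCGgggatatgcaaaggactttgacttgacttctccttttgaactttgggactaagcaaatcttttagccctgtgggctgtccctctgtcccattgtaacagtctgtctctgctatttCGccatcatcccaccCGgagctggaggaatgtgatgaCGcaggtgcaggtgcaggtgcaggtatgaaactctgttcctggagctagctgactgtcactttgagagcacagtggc

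These stretches differ widely in CpG. The Gnas stretch held 29 CpG, Phlda2 21, Tssc4 17, Mest 14, Ndn 5, Slc22a3 5 and the shorter Peg3 to Usp29 stretch 3. Tssc4 had a peak within 1 kb of this start in all 16 lists and Ndn in 14, while Gnas and Mest had one in 8 and Phlda2 and Slc22a3 in 6. A start rich in CpG was thus not always the one found in more lists. Over the 52 annotated starts of the 34 genes, the median was 9 CpG in 250 bases, against 10 over 21263 starts of protein-coding genes. Starts with no peak in any list (11 of 52) had 0 to 8 CpG, with a median of 4, starts with a peak in 1 to 8 lists (16) had 2 to 40, with a median of 13, and starts with a peak in 9 to 15 lists (24) had 3 to 35, with a median of 12. Over all starts the medians of these 3 classes were 2, 9 and 17. The hexamer TGCCGC, known as the core of the binding site of ZFP57, a zinc finger protein that protects imprints, was found on either strand at 6 of 52 starts (11.5%) and at 10.2% of all starts. It occurred 2 times in the Mest stretch. The YY1 core GCCATNTT was found at 3 starts (5.77%, against 3.65% of all), the CTCF core motif at 1 (1.92%, against 3.56%) and TATAAA at 11 (21.2%, against 11.6%). Overlapping windows were counted separately. The Mest starts at 30738050 and 30738053 both count for the hexamer, and the Gnas starts at 174327749 and 174327768 both count for TATAAA. These counts say only which letters stand in this window.

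An end peak was found in at least 1 list at 32 of the 40 genes, and the share of the 40 was above that of all protein-coding genes in all 16 lists. This excess did not hold in every list for the 37 further imprinted genes given below. In embryoid bodies 30, 30, 30 and 32 of the 40 genes had an end peak (75.0% to 80.0%, against 64.6% to 66.7% of all protein-coding genes). In WDR5WT lists it was 28 and 28 (70.0%, against 49.5% and 54.9%), in H9 25 and 25 (62.5%, against 48.2% and 48.8%), and in C9 21 and 24 (52.5% and 60.0%, against 43.0% and 44.3%). Parental ESC lists had 18 and 5 (45.0% and 12.5%, against 40.8% and 12.4%), S91K-Y191F lists 7 and 17 (17.5% and 42.5%, against 13.1% and 33.8%), and backbone lists 1 and 4 (2.50% and 10%, against 1.25% and 4.91%). The C9, H9 and WDR5WT lists lay above the other 6 ESC lists both for the 40 genes and for all genes. As group values this is 11.5 ± 9.19 genes in parental, 2.50 ± 2.12 in backbone, 12 ± 7.07 in S91K-Y191F, 22.5 ± 2.12 in C9, 25 ± 0 in H9 and 28 ± 0 in WDR5WT ESCs, and 30 ± 0 in parental and 31 ± 1.41 in double knockout embryoid bodies (SD, n = 2 each). With 2 libraries against 2, an exact permutation test cannot give a two-sided p under 0.33, so no pairwise comparison below has a test.

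**Figure D1:**
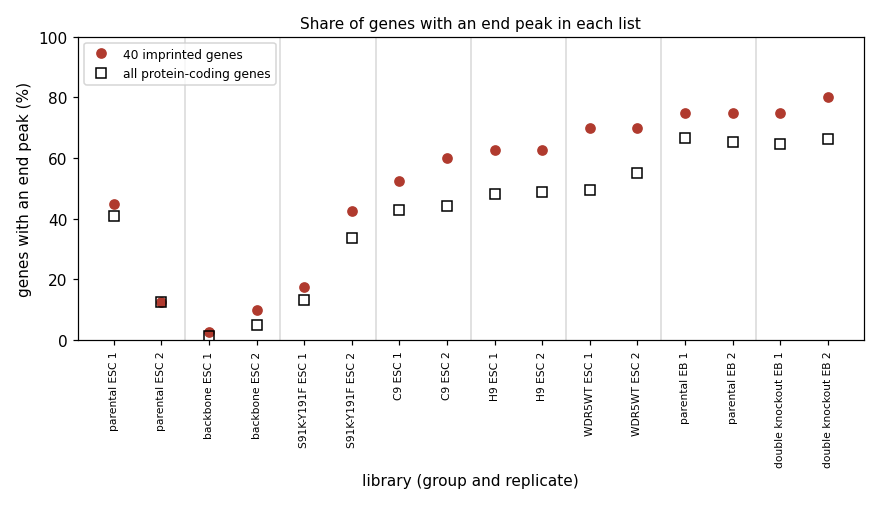
Share of genes with a peak within 1 kb of either end (y axis, percent) in each of the 16 lists (x axis), for the 40 imprinted genes (filled circles) and for all 21887 protein-coding genes (open squares). Both shares rise and fall together with the list, from 2.50% and 1.25% in backbone replicate 1 to 80.0% and 66.4% in double knockout embryoid body replicate 2.

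The genes fell into a few patterns. Tssc4, a small gene of the Kcnq1 domain, was the only 1 of the 40 with an end peak in all 16 lists (2.50%, against 0.832% of all genes). Ube3a had one in 15 lists, all but backbone replicate 1. Ndn and Zim1 had one in 14, all but the 2 backbone lists; Ndn encodes necdin, a MAGE family protein of neurons, and Zim1 a zinc finger protein. At the other end, 8 genes had no end peak in any list, against 26.5% of all genes: Igf2, Rtl1, Slc22a18, Ddc, Impact, Commd1, Asb4 and Slc22a2. Snrpn and Dlk1 had one in double knockout embryoid body replicate 2 only. Mest and Nnat were the 2 genes with an end peak in all 4 embryoid body lists and in none of the 12 ESC lists. This pattern was found at 6.26% of all genes. No imprinted gene had an end peak in an ESC list and in no embryoid body list. The share of all genes with this last pattern was not computed, and every embryoid body list is longer than every ESC list.

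The other genes lay between. Peg3 and Usp29 had an end peak in 14 lists and Inpp5f and Magel2 in 13. Kcnq1ot1, Cd81 (a tetraspanin), Plagl1 (a zinc finger growth regulator), Nap1l5, Mkrn3, Peg12 and Nespas had one in 12, and Ascl2 and Zrsr1 (a splicing factor gene) in 11. Peg10 (derived from a retrotransposon), Sgce (a sarcoglycan), Ppp1r9a, Dio3 and Gnas had one in 10, Igf2r and Slc38a4 in 9, Cdkn1c and Grb10 in 8 and Phlda2 and Slc22a3 in 6. All of these genes had an end peak in every embryoid body list. At Cd81 the end peaks of parental ESC replicate 1 and S91K-Y191F replicate 2 are the peak at the Tssc4 start, next to the other end of Cd81. The start of Cd81 itself had a peak within 1 kb in 10 lists.

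**Figure D2:**
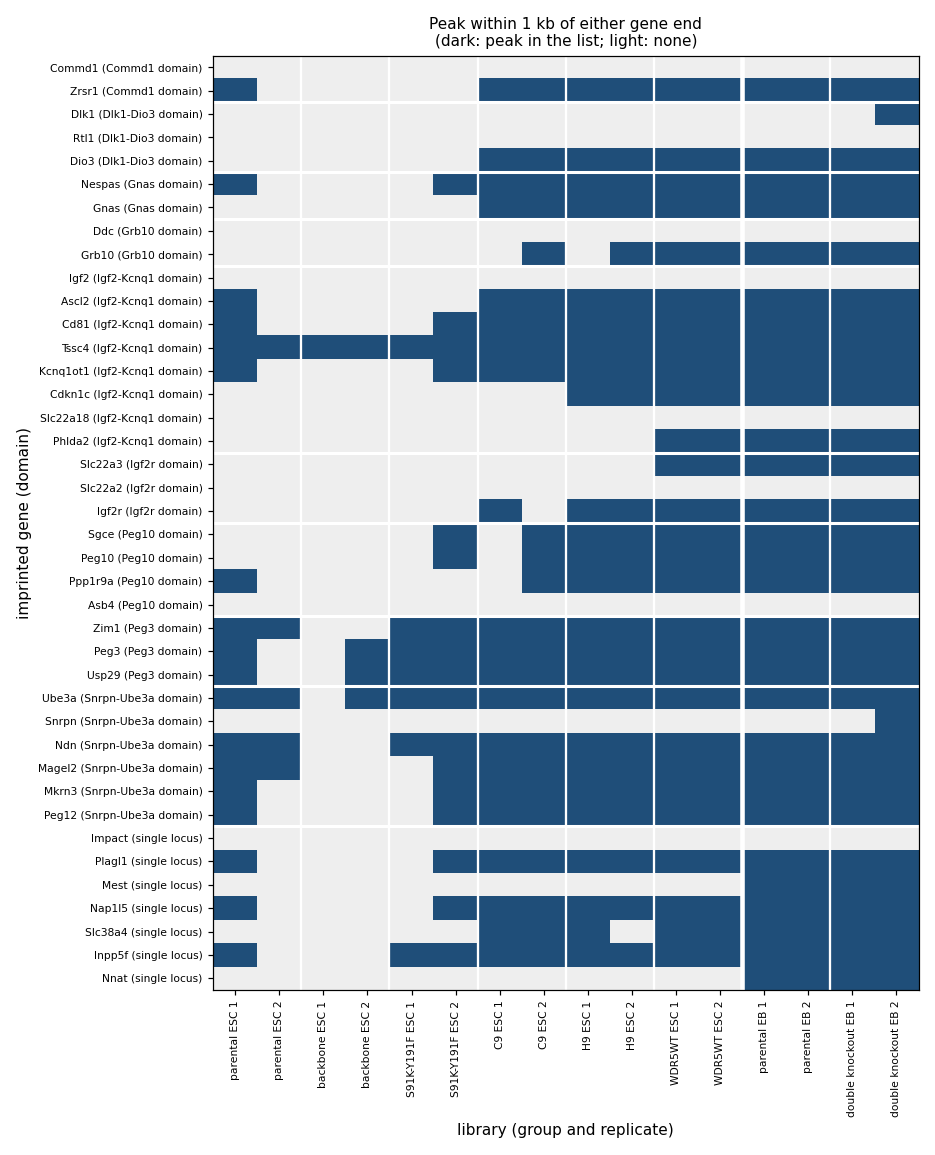
End peaks of the 40 imprinted genes (rows, grouped by domain) in the 16 lists (columns, ordered by group and replicate); a dark cell marks a peak within 1 kb of either end of the gene. Tssc4 is dark in every column, Mest and Nnat in the 4 embryoid body columns alone, and Phlda2 and Slc22a3 in the WDR5WT and embryoid body columns.

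Some genes without an end peak had peaks elsewhere in the gene. Snrpn, which encodes a spliceosome protein and whose internal start lies at its imprinting control region, spans 467683 bp in the table with its outer ends far from that start. At the internal start (position 60005199 of chromosome 7) a region at chr7:60002670-60005307 was found in 13 lists: parental replicate 1, both S91K-Y191F lists, and all C9, H9, WDR5WT and embryoid body lists. Commd1, which encodes a copper and NF-kappaB regulator and hosts Zrsr1 in an intron, had a peak within 1 kb of its start at position 22982284 of chromosome 11 in 12 lists. Impact, a single locus gene of the translation stress pathway, had a region inside the gene in 14 lists, all but the backbone lists.

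Within the Peg3 domain, the peak of Peg3 was among the highest of the whole list in 6 ESC lists. Peg3 encodes a zinc finger protein of maternal care and growth, Usp29 a ubiquitin protease, and the 2 genes share the start region shown above, which is the imprinting control region of the domain. The merged region (chr7:6726943-6730700) covers both starts and the first part of Peg3, and was found in all 16 lists. By signal, the measure of peak size that the ESC lists give, with no stated scaling and used here only within a list, its highest peak had rank 7 and 6 in C9, 5 and 5 in H9 and 4 and 4 in WDR5WT lists. In those lists the peak spanned 2792 to 3736 bp, and in all but C9 replicate 1 it reached over the sequence between the 2 genes. It had rank 69 and 184 in parental, 131 and 36 in S91K-Y191F, and 576 and 221 in backbone lists. Over these 6 lists it spanned 692 to 2608 bp, all inside Peg3. A wide peak can gain signal by its width, and that part was not tested. In embryoid body lists, ranked by the fold enrichment that those lists give, the same region stood at a fold of 3.02 and 3.12 in parental and 3.15 and 3.02 in double knockout, 68.7% to 82.0% of the way down the list. The highest peak there lay inside Peg3 in both parental lists and at the shared start in both double knockout lists. The Zim1 peak at the annotated start (chr7:6695935-6697005) stood in the upper 5.05% of all 4 embryoid body lists, with a fold of 6.13 to 6.80. It stood between 8.15% and 85.8% from the top in the 10 ESC lists that held it. Places rest on signal in ESC lists and on fold in embryoid body lists. The part of this, and of peak width, in the places of Peg3 and Zim1 was not tested.

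**Figure D3:**
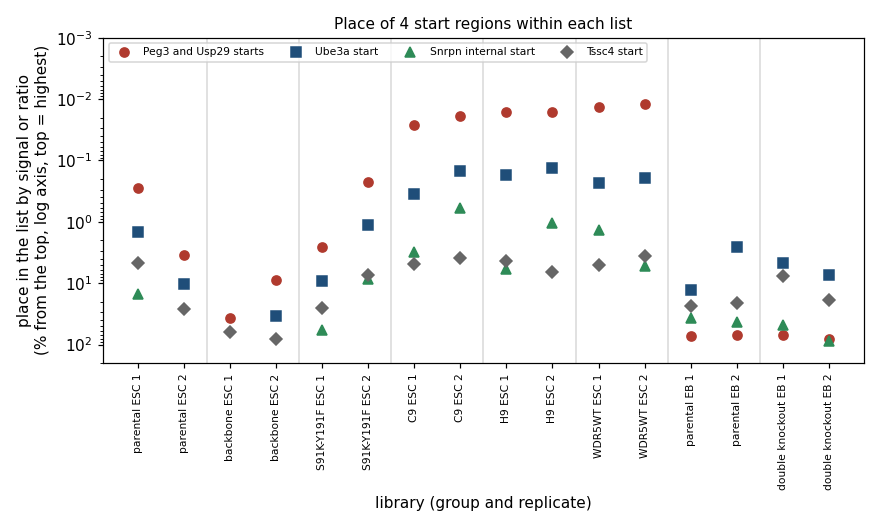
Place of the highest peak of 4 start regions within each list (y axis, percent from the top by signal in ESC lists and by fold enrichment in embryoid body lists, log axis with the highest peaks at the top; x axis, the 16 lists; no symbol where the list has no peak). The Peg3 and Usp29 region lies at 0.0122% to 0.0266% from the top in C9, H9 and WDR5WT lists and at 68.7% to 82.0% in embryoid body lists.

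In the Snrpn to Ube3a domain, where Ube3a is expressed from the maternal copy in neurons and the others from the paternal copy, open ends were common in ESCs that had longer lists. The start of Ube3a (chr7:59228031-59229925) stood 0.135% to 0.354% from the top of the C9, H9 and WDR5WT lists, at a signal of 3861 to 5589. It stood at 1.49% and 10.3% in parental lists, at 9.08% and 1.13% in S91K-Y191F lists and at 34.5% in backbone replicate 2. Ndn had a signal of 1140 and 385 in parental, 250 and 448 in S91K-Y191F, 2151 and 2582 in C9, 2339 and 2120 in H9 and 2792 and 3066 in WDR5WT lists, and a fold of 5.91 and 5.78 in parental and 4.6 and 5.02 in double knockout embryoid bodies. By place within its list this peak stood 2.42% to 6.30% from the top in C9, H9 and WDR5WT lists and 14.5% to 79.2% in the parental and S91K-Y191F lists. Magel2, an intronless MAGE gene next to Ndn, had an end peak in 13 lists, and Mkrn3, a ubiquitin ligase gene, and Peg12 in 12 each, with parental replicate 1 and S91K-Y191F replicate 2 as the only ones outside the C9, H9, WDR5WT and embryoid body lists.

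Loss of WDR5 with p53 was compared with the parental line within 1 of the 2 sets of ESC lists by widest peak. Both parental lists and neither backbone list held an end peak of Ndn, Magel2 and Zim1, 3 of 40 genes (7.50%), and 0 genes had the reverse. Over all protein-coding genes 7.92% had the first pattern and 0.0183% the second, so the imprinted genes were near the background. Tssc4 was the 1 gene found in all 4 lists, with a signal of 1793 and 530 in parental and 333 and 240 in backbone lists. At equal list length (1535 peaks) 0 genes had the first pattern, and without parental replicate 2 it was 14 genes.

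The next comparison set the S91K-Y191F mutant against the backbone plasmid, to see what a mutant WDR5 gives back. Ndn, Zim1 and Inpp5f, an inositol phosphatase gene, had an end peak in both mutant and neither backbone list (3 of 40, 7.50%, against 8.32% of all genes), and 0 genes had the reverse (0% of all genes). The share was thus near that of all genes. At equal list length 0 genes had this pattern, and without S91K-Y191F replicate 1 it was 13 genes and without backbone replicate 2 it was 6.

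Wild-type WDR5 was compared with the backbone for the effect of restoring it. End peaks in both WDR5WT and neither backbone list were found at 24 of the 40 genes (60.0%, against 43.7% of all genes), and the reverse at 0 (0.219% of all genes). The 24 genes come from all 9 domains and 4 of the 7 single loci, among them the cell cycle inhibitor Cdkn1c, the trophoblast transcription factor Ascl2, the placental growth regulator Phlda2, the receptor adaptor Grb10, the deiodinase Dio3 and the paternally expressed Peg10, Sgce, Plagl1 and Nap1l5. By regions, 58 of 89 near the imprinted genes were found only in WDR5WT (65.2%, against 64.8% of all regions), 1 only in backbone lists (1.12%, against 2.19%) and 2 in all 4 (2.25%, against 0.994%). That 1 region lies inside Ppp1r9a. WDR5WT and backbone lists belong to different sets by widest peak, which cannot be told apart from the genotype, and at equal list length (1535 peaks) 5 genes and 4 regions were left.

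Loss of p53 alone was compared with the parental line for each clone on its own. C9 had end peaks that both parental lists lacked at Dio3, Gnas and Slc38a4, an amino acid transporter gene (3 of 40, 7.50%, against 5.3% of all genes). H9 had them at Igf2r, Peg10, Sgce, Dio3, Cdkn1c and Gnas (6 of 40, 15%, against 8.11%). Dio3 and Gnas are on both lists, but the 2 comparisons share the parental libraries. The Gnas end peaks lie at its most upstream start, with a signal of 350 and 215 in C9 and 611 and 337 in H9. At the most downstream start of Gnas, C9 had no peak. The reverse pattern was found at 0 genes for either clone (0.393% and 0.375% of all genes). Near Peg10 and Sgce, parental replicate 1 did hold a peak (chr6:4748915-4749500, signal 925), but outside the 1 kb window. With a window of 2500 bp, 4 genes were found only in H9. At Dio3 (chr12:110278579-110279599) the signal was 430 and 368 in C9 and 326 and 367 in H9, with no peak in either parental list. Without parental replicate 1, the longer of that pair of lists, 15 genes were found only in C9 and 19 only in H9, and without C9 replicate 1 it was 6 in C9. In this comparison too the lists belong to different sets.

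The 2 p53 knockout clones differed from each other more often at H9-only than at C9-only regions. Near the imprinted genes 13 of 87 regions were found only in H9 (14.9%, against 4.63% of all regions) and 2 only in C9 (2.3%, against 2.26%), and 41 were found in all 4 lists (47.1%, against 47.2%). Of the 13 H9 regions, 4 lie at Ppp1r9a, which encodes the actin-binding protein neurabin. The others lie at Plagl1, Ddc, Grb10, Nnat, Gnas, Zim1, Usp29, between Peg10 and Sgce, and at Cdkn1c. The 2 C9 regions lie inside Rtl1 (chr12:109594879-109595254) and Snrpn (chr7:60374058-60374298). Cdkn1c was the 1 gene with an end peak only in H9 (2.50%, against 2.3% of all genes), and 0 genes had one only in C9 (0.242%). In numbers of regions, C9 lists had 55 and 54 and H9 lists 68 and 70 near the imprinted genes, from lists of 26305 and 31782 and of 30780 and 31130 peaks. As shares of all regions in the list this is 0.216% and 0.174% in C9 and 0.228% and 0.231% in H9. At equal list length (26305 peaks) 8 regions were found only in H9. The share of all regions at that length was not computed, so the excess over all regions was not tested there. Leaving out 1 list, those found only in C9 numbered 5 without C9 replicate 1, 4 without C9 replicate 2 and 4 without H9 replicate 1. The end peak count for H9 was 2 and 4 without C9 replicates 1 and 2, and that for C9 was 1 without H9 replicate 1.

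WDR5WT ESCs were compared with each clone, which keeps its own Wdr5. Against C9, end peaks of Cdkn1c, Phlda2 and Slc22a3 were found only in WDR5WT (3 of 40, 7.50%, against 4.15% of all genes), and against H9 those of Phlda2 and Slc22a3 (2 of 40, 5.00%, against 1.68%). The reverse was found at 0 genes in both comparisons (0.224% and 0.329% of all genes), which share the WDR5WT libraries. Without C9 replicate 2, 7 genes were found only in WDR5WT. Phlda2 encodes a small lipid-binding protein that limits placental growth and Slc22a3 a transporter of organic cations; both are expressed from the maternal copy in the placenta.

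Among the WDR5WT peaks, Phlda2 stood 93.5% and 56.6% from the top of the list by signal and Slc22a3 86.7% and 39.7%. At Phlda2 (chr7:143501845-143502947) the signal was 222 and 457 in WDR5WT lists, where no listed signal is under 200, and no other ESC list had a peak. In embryoid bodies the fold was 4.05 and 3.41 in parental and 3.29 and 3.42 in double knockout lists. At Slc22a3 (chr17:12506873-12507848) the signal was 248 and 684 in WDR5WT lists, and the fold 2.64 and 3.17 in parental and 3.24 and 3.41 in double knockout embryoid bodies. These folds are each list's own values and were not compared between lists. Cdkn1c (chr7:143460544-143461824) had a signal of 257 and 354 in H9 and 469 and 893 in WDR5WT lists and no peak in C9, parental, backbone or S91K-Y191F lists.

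The Gnas domain held most of the regions found in WDR5WT alone among ESCs. Gnas encodes the stimulatory G protein alpha subunit and uses several starts: the most upstream makes the Nesp transcript from the maternal copy, and Nespas runs antisense to it from the paternal copy. Further downstream lie 2 starts at exon 1A and, close to them, the most downstream start shown above, which makes the G protein subunit itself. Over the 16 lists 290 regions lay near the imprinted genes, and 5 were in both WDR5WT and no other ESC list (1.72%, against 0.723% of all 163173 regions). Of these 5, 3 lie at Gnas and the other 2 are the Phlda2 and Slc22a3 starts.

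The 3 Gnas regions were also found in embryoid bodies. The region behind the most upstream start (chr2:174287536-174288228) had a signal of 268 and 338 in WDR5WT lists and a fold of 2.59 and 2.78 in parental and 3.48 and 2.81 in double knockout embryoid bodies. The region at the exon 1A starts (chr2:174327151-174328081) had a signal of 383 and 316, and a fold of 2.97 and 3.09 in parental and 2.61 and 2.52 in double knockout. The region at chr2:174298927-174300978 had a signal of 452 and 433 and was found in 3 of 4 embryoid body lists, with no peak in parental replicate 2.

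Other starts of Gnas had a peak in more lists. At that most downstream start (chr2:174328891-174331092) the signal was 269 and 281 in H9 and 966 and 2144 in WDR5WT lists, with no peak in the other 8 ESC lists. The most upstream start (chr2:174284528-174285558) had a peak in all C9, H9 and WDR5WT lists, at 350 and 215, 611 and 337, and 657 and 855. The Nespas start (chr2:174294879-174296402), which is a germline control region of the domain, had a peak in 12 lists. Its signal was 373 in parental replicate 1, 558 in S91K-Y191F replicate 2 and 1254 to 1616 in C9, H9 and WDR5WT lists. Counted as regions in the domain, WDR5WT lists had 7 and 7, C9 4 and 3, H9 4 and 3, parental 2 and 0, S91K-Y191F 0 and 2 and backbone 0 and 0. The WDR5WT lists, of 29779 and 32709 peaks, thus had more regions here than H9 lists of 30780 and 31130 peaks.

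**Figure D4:**
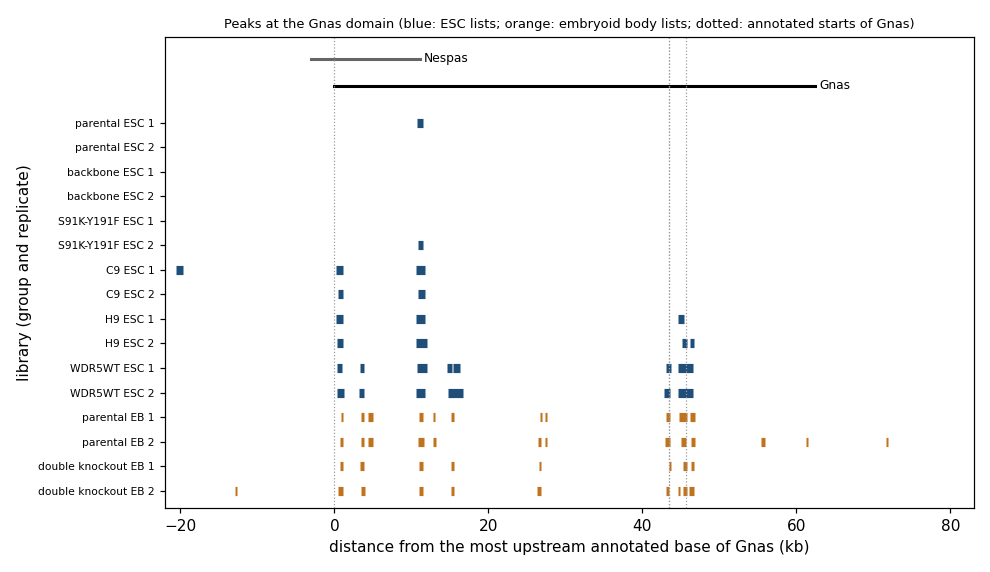
Peaks at the Gnas domain, drawn by distance in kb from the most upstream annotated base of Gnas (x axis) for each of the 16 lists (rows); blue bars are peaks of ESC lists, orange bars of embryoid body lists, lines at the top the genes and dotted lines annotated starts. WDR5WT and embryoid body rows have peaks behind the first start and at the exon 1A starts where other ESC rows have none.

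Differentiation was compared in the parental line, embryoid bodies against ESCs. End peaks in both embryoid body and neither ESC list were found at 12 of 40 genes (30.0%, against 24.9% of all genes), and the reverse at 0 (0.599%). They were Igf2r, Peg10, Sgce, Mest, Dio3, Cdkn1c, Phlda2, Grb10, Nnat, Gnas, Slc38a4 and Slc22a3. Near Peg10 and Sgce, parental ESC replicate 1 held a peak outside the 1 kb window, as given above. That list also held a peak inside Grb10 (chr11:12025596-12026829, signal 901), outside 1 kb of the gene ends and annotated starts. The lists differ in format and in length: at equal list length (5330 peaks) the counts were 2 and 3, and without parental ESC replicate 1 the first was 25. Nnat, a membrane proteolipid of the developing brain, had a peak inside the gene (chr2:157561175-157561772) at a fold of 4.72 and 4.34 in parental and 4.51 and 4.8 in double knockout embryoid bodies, and no peak there in ESC lists.

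Mest, a hydrolase gene of mesoderm, showed how the choice of start matters. Its outer start (chr6:30732736-30733529) had a peak in the 4 embryoid body lists alone, at a fold of 2.32 to 2.66, which is 95.7% to 98.8% of the way down each list. Its second start, which lies at the imprinting control region, had a region (chr6:30737732-30738438) in those 4 lists at a fold of 3.57 to 4.47. It was also found in both WDR5WT lists at a signal of 457 and 775, in C9 replicate 1 at 306 and in H9 replicate 1 at 250. Igf2, with no end peak, had low peaks at internal starts: the region at chr7:142660495-142661065 was found in 6 lists, of which 3 were ESC lists (C9 replicate 1, H9 replicate 2 and WDR5WT replicate 2, at 216, 304 and 387).

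Embryoid bodies of both genotypes shared most open imprinted gene ends. End peaks were found in all 4 lists at 30 of 40 genes (75.0%, against 61.2% of all genes), only in the double knockout at 0 (0.694% of all genes) and only in parental at 0 (0.818%). Without double knockout replicate 1, Snrpn and Dlk1 would count as found only in the double knockout. At Kcnq1ot1, the RNA that silences its domain on the paternal copy, the fold at the start (chr7:143295671-143297206) was 6.86 and 6.0 in parental and 5.50 and 4.79 in double knockout lists. At the Igf2r start (chr17:12769048-12770132) it was 5.09 and 4.92 in parental and 3.27 and 3.89 in double knockout lists. By place within the list, the Kcnq1ot1 start stood 2.56% and 5.90% from the top in parental and 5.83% and 18.7% in double knockout lists, and the Igf2r start 13.8% and 16.2% and 61.6% and 41.0%. Other starts stood in the other order, at 30.6% and 31.2% in parental and 14.3% and 10.4% in double knockout lists for Plagl1, 23.2% and 21.1% and 7.78% and 19% for Tssc4, and 39.1% and 48.6% and 32.0% and 24.8% for the second start of Mest. These 5 starts were chosen after their values were seen, and no common order of the genotypes is read from them.

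By regions, which include those at gene ends, few were in both embryoid body lists of 1 genotype and in neither of the other. Regions with any other mixed pattern enter neither of these counts. Of 291 regions near the imprinted genes, 101 were in all 4 lists (34.7%, against 28.4% of all regions), 16 only in parental (5.50%, against 4.27%) and 5 only in double knockout lists (1.72%, against 4.69%). The 16 parental regions include 3 at Gnas, 3 at Asb4, 2 at Ddc and 1 each at Plagl1, Rtl1, Slc22a3, Ppp1r9a, Mest, Usp29, Igf2 and Ascl2. The 5 double knockout regions lie at Ddc, Ppp1r9a, Usp29, Mkrn3 and next to Tssc4. Counts rested on single lists: the double knockout regions numbered 34, 33, 19 and 8 without double knockout replicates 1 and 2 and parental replicates 1 and 2, and the parental ones 34, 39 and 51 without double knockout replicate 2 and parental replicates 1 and 2. Asb4, a ubiquitin ligase adaptor, had 9 regions found in 3 or more lists, and ESC lists held a peak in just 1 of them, in C9 replicate 2.

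Imprinted genes outside the 40 are given by count. Of 37 further imprinted genes in the table, 29, 29, 28 and 30 had an end peak in the embryoid body lists, 24 and 27 in WDR5WT, 23 and 23 in H9, 18 and 16 in C9, 13 and 1 in parental, 1 and 9 in S91K-Y191F and 0 and 1 in backbone lists. Their share was below that of all genes in parental ESC lists (35.1% and 2.70%, against 40.8% and 12.4%) and backbone lists (0% and 2.70%, against 1.25% and 4.91%). It was also below in S91K-Y191F lists (2.70% and 24.3%, against 13.1% and 33.8%) and in C9 replicate 2 (43.2%, against 44.3%). In the remaining lists it was above. End peaks only in WDR5WT against backbone were found at 21 of 37 (43.7% of all genes). Against parental ESCs they were found only in H9 at 8 of 37 (8.11% of all genes) and only in C9 at 4 of 37 (5.3%). Only in parental embryoid bodies against parental ESCs they were found at 16 of 37 (24.9%). Each of these shares of the 37 was above that of all genes. Lists of equal length were not tried for the 37. Of 11 factors known to maintain imprints, 8 and 7 had an end peak in WDR5WT, 7 in each C9 and H9, 5 and 3 in parental, 3 and 6 in S91K-Y191F and 0 and 2 in backbone lists. Against backbone, Uhrf1, which guides maintenance methylation, was the 1 factor found only in parental (7.92% of all genes) and only in S91K-Y191F lists (8.32%), and Zfp445, Uhrf1, Ctcf, Smchd1 and Eed were found only in WDR5WT lists (43.7%). Against parental ESCs, Zfp445 and Ctcf were found only in C9 (5.3% of all genes) and only in H9 (8.11%). Zfp445, Setdb1 and Ctcf were found only in parental embryoid bodies against parental ESCs (24.9%).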

How the data were processed

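Each of the 16 ATAC-seq libraries has 1 peak list. Per the submitters' processing notes, the tools were MACS2 2.1.2, Genrich 0.6, DESeq2, SAMtools and Bowtie2 2.3.5 and the build mm10, with no role given for each; the caller of the ESC lists is not given in the sources used here. The deposited ESC lists hold per peak a score, a signal (never under 200) and a −log10 p, and the deposited embryoid body lists a score, a ratio (fold enrichment) and −log10 p and q. The authors' peak values were used only within a list, for rank and description; the score was not used. Read depth is unknown.

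Peaks were read with Python 3.11.15 and pandas 2.3.3 and placed on RefSeq gene ends (GRCm38.p6) for 21887 protein-coding genes on chromosomes 1 to 19, X and Y. An end peak lies within 1000 bp of either gene end; regions are peaks merged where they overlap by 1 bp or more, separately for each comparison and over all 16 lists. "Only in" a group means in both of its lists and neither of the other group. The share of all genes or regions with that pattern is given as background. There were 10 comparisons of end peaks and 3 of regions, with no test. The code was tested on simulated data. Alternatives were windows of 500 and 2500 bp, a reach of 10 kb, a cover of 50%, lists of equal length (the highest peaks, to the shortest list compared), the upper 50% by p, leaving out each list and, chosen after seeing the data, annotated starts. Whether 2 replicates come from separate cultures is not stated in the labels. Any of the 40 genes may be named; genes of the other imprinted and maintenance lists are given by counts, and named only where they differ between groups. The imprinted genes and other lists were chosen with earlier results of these data known.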

Additional observations from a re-analysis of the deposited data

How the results depend on the processing

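Of 254 alternative counts, 207 were within 1.5 times the reported count. Leaving out 1 list moved 22 counts and lists cut to equal length moved 10. Equal length gave 0 genes only in parental against backbone ESCs, 0 only in S91K-Y191F and 5 only in WDR5WT against backbone, 1 only in C9 and 2 only in H9 between the clones, 1 only in C9 against WDR5WT, 2 only in parental embryoid bodies and 3 only in parental ESCs, and, of regions, 4 only in WDR5WT against backbone and 8 only in H9. The upper 50% by p gave 1 gene only in S91K-Y191F, 2 only in H9 against C9, 1 only in WDR5WT against C9 and 0 against H9. A window of 500 bp gave 3 genes only in H9 against C9 and 5 only in WDR5WT against C9, and 0, 1 and 4 genes with an end peak in backbone replicates 1 and 2 and S91K-Y191F replicate 1. A window of 2500 bp gave 5 genes only in S91K-Y191F, and 4 and 8 with an end peak in backbone replicate 1 and parental replicate 2. A reach of 10 kb gave 3 regions only in double knockout embryoid bodies. Annotated starts, an alternative chosen after seeing the data for the 34 genes in the promoter table, gave 5 genes only in C9 against parental ESCs and 0 only in H9 against C9. That 0 says nothing about Cdkn1c, the 1 gene of the reported count, which has no entry in the promoter table and could not be scored. Apart from this missing entry, and from list length, where fewer peaks enter, the cause was not tested.

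Leaving out 1 list gave 0 to 2 genes only in double knockout embryoid bodies, 3 to 14 only in parental against backbone, 3 to 13 only in S91K-Y191F, 24 to 27 only in WDR5WT against backbone, 3 to 15 only in C9 and 6 to 19 only in H9 against parental, 0 to 1 only in C9 and 1 to 4 only in H9 between clones, 3 to 7 only in WDR5WT against C9, 2 to 3 against H9 and 12 to 25 only in parental embryoid bodies against ESCs. Regions ranged from 8 to 34 only in double knockout and 22 to 51 only in parental embryoid bodies, 2 to 5 only in C9, 15 to 19 only in H9 and 58 to 76 only in WDR5WT. No paired analysis was possible because each result is a count of called peaks that comes from no test. Depth is unknown, so an absent peak is a peak not called, not closed DNA.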

Other observations

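Ppp1r9a, the neurabin gene of the Peg10 domain, held the 1 region of 290 near the imprinted genes that was in all 6 parental, backbone and S91K-Y191F ESC lists and in none of the other 10 (0.345%, against 0.260% of all regions). It lies inside the gene at chr6:4923733-4924243, away from both ends and from annotated starts. Its signal was 1150 and 1785 in parental, 1387 and 1806 in backbone and 1584 and 1315 in S91K-Y191F lists, and it stood 3.13% to 15.9% from the top of these lists. These 6 lists are also the ones with the widest peaks, and the part of that in this region was not tested.

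Over all 16 lists, 187 of the 290 regions near the imprinted genes were in embryoid body lists and in no ESC list (64.5%, against 68.0% of all regions), and 11 were in ESC lists and in no embryoid body list (3.79%, against 9.07%). The Peg10 domain had the most regions, 56, of which Ppp1r9a is the longest gene with 262790 bp.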
